A study of Mus musculus with 15 samples.

Results

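The genes described here are 10 members of the ETS family of transcription factors, namely Erg, Fli1, Ets1, Ets2, Spib, Spi1, Etv6, Elf1, Elf4 and Gabpa, out of 55335 gene identifiers in the count files. They were taken by symbol and selected on their CPM values in the knockout and wild-type libraries, since earlier results from the same libraries had shown Erg and Spib to be lower in one group. Values of that contrast are therefore given for the 10 genes as a description. Where the place of a member past or short of the threshold used for all genes is stated, it too is a description, with no p and no support drawn from it. All 10 passed the filter on low counts that left 13077 genes in the fit. RNA was measured in cultured pre-B cells of the mouse. The labels trace the cells to SLP65KO bone marrow, so by the labels both groups are without SLP65. This adaptor (gene Blnk) relays signals of the pre-B cell receptor. The cells were grown as 1 single-cell clone in medium with interleukin 7 and received no treatment. An Msl2 guide RNA was introduced by electroporation to make the knockout line. The MSL complex holds the ubiquitin ligase MSL2 and the acetyltransferase MOF, which marks histone H4. Each group had 3 libraries, 3 titled as Msl2 wild type and 3 titled as knockout, and the comparison asked which RNA levels differ between them.

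ETS factors share a DNA-binding domain, the ETS domain, that recognises a core of the letters GGAA with flanking bases that differ between subfamilies. Because several members are present in most blood cells and bind overlapping sites, they are known for acting redundantly as well as individually. PU.1 (encoded by Spi1) and SPIB drive B cell genes together with IRF4 and IRF8. ETS1 binds beside PAX5 and RUNX1. ERG and FLI1 are factors of blood stem cells, megakaryocytes and endothelium, and ERG is also needed in early B cell development. In bulk RNA a lower value cannot be divided into fewer cells that express a gene and less RNA per cell.

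Before the members, the libraries themselves need a description. For all 6 RNA libraries the genotype tag names the opposite Msl2 genotype to the title. The groups follow the titles, and each direction below depends on them. Msl2 RNA was present in both groups, at 97.1, 99.3 and 92.3 CPM (read counts relative to the scaled library size) in the wild-type libraries and at 105, 103 and 121 CPM in the knockout. Values are given throughout in the order of replicates 1, 2 and 3. The Msl2 difference did not pass the test (log2 fold change 0.19 ± 0.08 SE, adjusted p 0.302, edgeR quasi-likelihood test). Reads summed over a gene cannot show a small edit in a transcript that is still made, so Msl2 does not settle which label is right. RNA of Blnk was also present, at 83.2, 120 and 92.2 CPM in the wild type and at 116, 111 and 108 CPM in the knockout. The lack of SLP65 is thus taken from the labels and cannot be seen in these counts. Total counts ran from 14092278 to 20803227 per library, and 0 reads in 1 library limits a gene to between 0.141 and 0.212 CPM, for counting error only. Of 16 pre-B cell markers, Cd79a, Cd79b, Vpreb1, Igll1, Pax5 and Ebf1 were at 164 CPM or more in each library, and others were low. The recombinase genes Rag1 and Rag2 had 0 reads in wild-type replicates 1 and 3, where the light chain gene Iglc1 had 1 and 2 reads. Wild-type replicate 2 had 34 reads of Rag1, 27 of Rag2 and 58 of Iglc1. The knockout libraries had 29, 17 and 9 reads of Rag1, 54, 44 and 37 of Rag2, and 46, 41 and 33 of Iglc1. None of these genes passed the test (adjusted p 0.868, 0.223 and 0.716, edgeR). Dntt was too low to test, Ms4a1 was at most 1.98 CPM, and Il7r was lower in the knockout. In a few genes, both libraries numbered 2 stood apart from the others of their group. In 2 genes, wild-type replicates 1 and 3 were under 0.1 CPM while knockout replicates 1 and 3 had 5 CPM or more, and both genes were detected in wild-type replicate 2, at a median of 20.2% of their knockout level. In the reverse direction, 5 of 5 such genes were detected in knockout replicate 2, at a median of 19.7% of their wild-type level. The same count was not made for knockout replicates 1 and 3. Over the genes as a whole, the libraries numbered 2 did not stand apart. The chi-square of the read counts per degree of freedom was smallest between knockout replicates 2 and 3 (6.53). In the wild type it was smallest between replicates 1 and 2 (9.62). Nothing in the labels says that replicates came from separate cultures, and each genotype is 1 line. The p-values below therefore measure the spread between these libraries alone, which may be technical.

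To place the members in the genome, the 250 bases before the annotated start are shown for the gene with the largest difference (Erg), for its nearest tested neighbour Ets2, and for Spib, 5′ to 3′ on the gene's own strand, from RefSeq on GRCm38.p6 (mm10). Capitals mark the ETS core GGAA or its reverse complement TTCC.
Erg, chr16:95586594-95586843, minus strand: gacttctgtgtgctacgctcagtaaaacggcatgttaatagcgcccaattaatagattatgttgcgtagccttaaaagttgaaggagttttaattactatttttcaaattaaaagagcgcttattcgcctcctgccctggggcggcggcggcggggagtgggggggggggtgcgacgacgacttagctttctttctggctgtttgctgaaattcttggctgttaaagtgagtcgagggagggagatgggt
Ets2, chr16:95702157-95702406, plus strand: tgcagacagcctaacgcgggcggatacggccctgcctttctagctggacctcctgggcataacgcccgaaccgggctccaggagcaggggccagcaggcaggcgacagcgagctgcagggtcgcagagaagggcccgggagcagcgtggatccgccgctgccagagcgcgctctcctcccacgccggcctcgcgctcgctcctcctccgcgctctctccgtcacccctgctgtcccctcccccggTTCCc
Spib, chr7:44532072-44532321, minus strand: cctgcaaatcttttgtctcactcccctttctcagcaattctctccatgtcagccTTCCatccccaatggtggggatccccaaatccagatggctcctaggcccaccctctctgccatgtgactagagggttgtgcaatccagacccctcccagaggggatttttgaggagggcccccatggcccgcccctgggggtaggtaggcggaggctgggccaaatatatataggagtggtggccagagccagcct
The core was found 0 times in the Erg window and 1 time each in the Ets2 and Spib windows, with overlapping matches on both strands counted. Of all 32851 windows of this length, 93.4% held it, with a median of 3 matches. The table had 11 windows for 7 of the 10 genes, and Spi1, Fli1 and Ets1 had none. The core was present in 9 of the 11, with 6 matches in the window of the outermost Elf4 start. Erg has 3 listed starts, of which the outermost is shown and the other windows held 4 and 2 cores, and counts made per gene do not tell which start was used. A match is only a match of letters, and none of these windows was measured for binding here.

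As a description, 3 of the 10 members (Erg, Ets1 and Spib) lay past the threshold used for all genes (an adjusted p under 0.05 in edgeR) with lower RNA in the knockout, and 0 with higher RNA, where 2.79% of all 13077 tested genes were lower and 1.8% higher. In these 3 all knockout libraries lay below all wild-type libraries, a separation that held for 11.2% of tested genes, and the groups of the other 7 overlapped. Because the contrast served to choose the genes, nothing is read from these shares. The log2 fold changes of the other 7 ran from -0.06 to 0.36, 6 of them positive. The median over the 10 was 0.05, against 0.00 over all tested genes. Differences thus ranged from a near loss of Erg to values close to 0 for Gabpa, Elf1 and Fli1.

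Erg (ENSMUSG00000040732.20, chromosome 16, 95359169 to 95586600) encodes the ETS factor of stem cells and endothelium named above. It was at 8.34, 10.9 and 10.1 CPM in the wild type, against 0.684, 0.986 and 0.66 CPM in the knockout. These levels rest on 118, 194 and 152 wild-type reads and on 11, 21 and 10 knockout reads. Every knockout library was far below every wild-type library, and knockout replicate 2 was the highest of its group. Means were 9.79 ± 1.3 and 0.777 ± 0.18 CPM (SD, n = 3 each), which is a log2 fold change of -3.62 ± 0.24 (SE) and a level 12.3-fold lower. With both libraries numbered 2 left out the log2 fold change was -3.76. The RNA was reduced and not absent, since each knockout library had at least 10 reads, above the floor of 3.

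Fli1 (chromosome 9, 32422204 to 32543432) encodes the closest relative of ERG, with which it shares many sites in blood stem cells and megakaryocytes. Its wild-type libraries were at 92.9, 98 and 102 CPM and its knockout libraries at 96.7, 98.2 and 112 CPM. The groups overlapped, and the log2 fold change was 0.07 ± 0.08 (95% interval from -0.11 to 0.24). As a description, this value was smaller than the Erg difference and the Ets1 difference. The differences between these genes were not tested.

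Ets1 (ENSMUSG00000032035.16, chromosome 9, 32636241 to 32757820) encodes the lymphocyte factor that binds with PAX5 at the promoter of Cd79a and after which the family is named. Its wild-type libraries were at 204, 205 and 201 CPM, a spread of 1.02% of the mean (coefficient of variation). The knockout libraries were at 115, 135 and 137 CPM. All 3 lay well below the wild type, with knockout replicate 1 the lowest. Means were 204 ± 2.1 and 129 ± 12 CPM (SD, n = 3 each), which is a log2 fold change of -0.66 ± 0.08 or 36.6% less RNA. The difference was -0.68 with both libraries numbered 2 left out and between -0.70 and -0.58 without each library in turn.

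Ets2 (chromosome 16, 95702407 to 95721049) is the paralog of Ets1 and a target of growth factor signalling through ERK kinases. It was at 16.5, 17 and 20.4 CPM in the wild type and at 26.6, 20.3 and 22.3 CPM in the knockout. Wild-type replicate 3 lay just above knockout replicate 2, so the groups overlapped. The log2 fold change was 0.36 ± 0.13, the largest positive value of the 10 genes. As a description, its 95% interval ran from 0.07 to 0.65, and Ets2 lay short of the threshold used for all genes. The family has kept an old tandem arrangement in which an ERG-type gene lies beside an ETS1-type gene. In mm10 the spans of Erg and Ets2 are 116 kb apart on chromosome 16, and those of Fli1 and Ets1 are 92.8 kb apart on chromosome 9. In the first pair the ERG-type gene was lower and its neighbour was not, and in the second the ETS1-type gene was lower and its neighbour was not.

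Spib (ENSMUSG00000008193.13, chromosome 7, 44525995 to 44532087) encodes the B cell factor SPIB, which overlaps in function with PU.1. The wild-type libraries were at 64.7, 67.2 and 70.6 CPM and the knockout libraries at 55.3, 42.8 and 41.8 CPM. The groups did not overlap, and knockout replicate 1 was nearest to the wild type. Means were 67.5 ± 2.9 and 46.6 ± 7.5 CPM (SD, n = 3 each), which is a log2 fold change of -0.54 ± 0.11 or 31% less RNA. Leaving out 1 library at a time gave log2 fold changes between -0.67 and -0.46, and the value was -0.47 with both libraries numbered 2 left out. As a description, the place of Spib past the threshold was not stable. It fell short in 5 of 14 other settings: without wild-type replicate 2 or 3, without knockout replicate 2 or 3, and without both libraries numbered 2. Fits with fewer libraries also have less power, so nothing is read from these losses.

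Spi1 (chromosome 2, 91082374 to 91115759), the gene of PU.1, was at 43.1, 47.8 and 52.1 CPM in the wild type and at 58.4, 48.8 and 52.1 CPM in the knockout. The groups overlapped, and the log2 fold change was 0.15 ± 0.10 with a 95% interval from -0.06 to 0.37. The value for Spi1 was thus positive where that for its relative Spib was negative. The difference between the 2 genes was not tested.

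**Figure D1:**
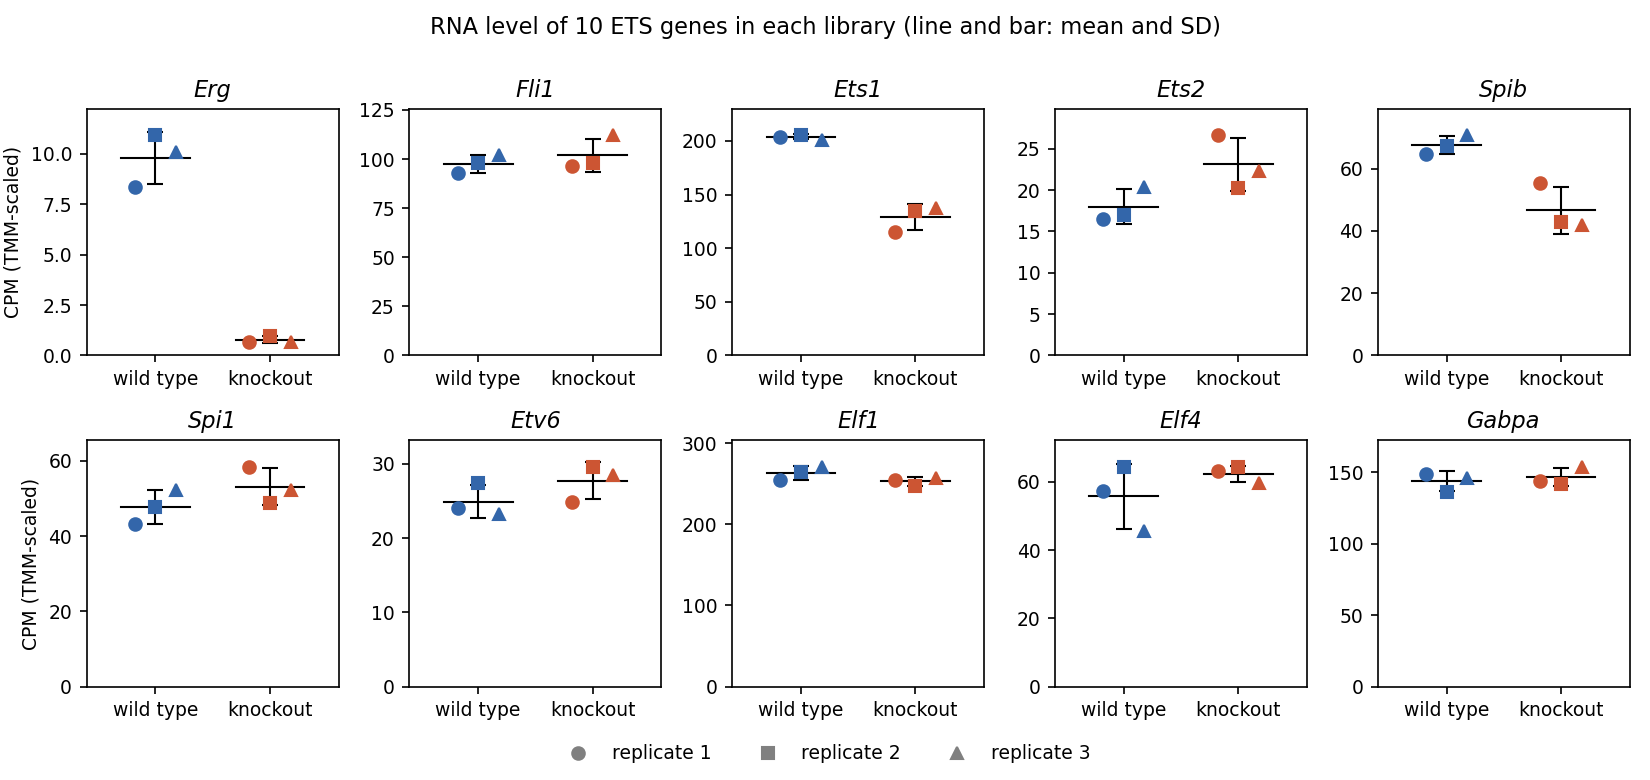
RNA level (CPM on TMM-scaled library sizes, linear axis from 0, a separate axis for each gene) of the 10 ETS genes in 3 wild-type libraries (blue) and 3 knockout libraries (orange), with the mean and SD in black and the replicate number as the symbol. The groups are apart for Erg (9.79 against 0.777 CPM), Ets1 (204 against 129 CPM) and Spib (67.5 against 46.6 CPM) and overlap for the other 7.

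Etv6 (chromosome 6, 134035700 to 134270158) encodes a repressor of the family that blood stem cells need and that is a frequent partner in leukaemia gene fusions. It was at 24.1, 27.4 and 23.2 CPM in the wild type and at 24.9, 29.6 and 28.5 CPM in the knockout, which overlapped (log2 fold change 0.15 ± 0.11, 95% interval from -0.08 to 0.39). Elf1 (chromosome 14, 79481174 to 79582491), an activator of lymphocyte genes, was at 254, 265 and 271 CPM and at 255, 247 and 257 CPM. Its log2 fold change of -0.06 ± 0.07 had a 95% interval from -0.21 to 0.09. Elf4 (chromosome X, 48411049 to 48463132), which restrains the division of lymphocytes, was at 57.2, 64.4 and 45.5 CPM and at 63, 64.3 and 59.6 CPM. Its wild-type libraries spread more than its knockout libraries (coefficients of variation 17.1% and 3.87%), and the log2 fold change was 0.16 ± 0.12. Gabpa (chromosome 16, 84834891 to 84863783) encodes the DNA-binding chain of GABP, a factor of housekeeping and mitochondrial genes. It was at 149, 136 and 146 CPM and at 144, 142 and 154 CPM. Its log2 fold change was 0.03 ± 0.07 (95% interval from -0.13 to 0.19). For none of these 4 genes did the groups separate. RefSeq spans of other genes overlap Gabpa (Atp5j), Elf1 (Wbp4 among 3), Etv6 (5 genes) and Fli1 (1 gene), so without a stated strand setting some of their reads may belong to the neighbour. No RefSeq span overlaps Erg, Ets1, Ets2, Spib, Spi1 or Elf4.

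Summed over the 10 genes, the RNA level was between 913 and 943 CPM in the wild type and between 829 and 864 CPM in the knockout. Erg made up between 0.913% and 1.17% of that sum in the wild type and between 0.0764% and 0.119% in the knockout. Spib made up between 7.08% and 7.49% and then between 4.83% and 6.58%. These sums depend on gene length as well as on RNA level and are used only to compare libraries. Levels of different members are not ranked, since exon lengths were not at hand.

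The remaining ETS genes were listed to see what the rest of the family did. Of 27 family genes, 26 were in the files under their symbols, 18 were tested and 8 were too low. Among the 8 that were too low, 5 (Elf3, Ehf, Etv1, Fev and Spic) had 0 reads in all 6 libraries, and Elf5, Etv2 and Spdef had at most 4 reads in any library. Of the 8 tested genes outside the 10 members, 1 rose and 0 fell (4.59% of all tested genes passed in either direction). An unadjusted p under 0.05 (edgeR) was found for 5 of the 8, against 15.4% of all tested genes. These were Etv4, Etv5, Elk1 and Elk3, with higher RNA in the knockout, and Erf, with lower RNA. Etv4, a factor of the PEA3 group that growth factor signalling induces, was at 40.3, 36.3 and 38.5 CPM in the wild type and at 69.6, 56.2 and 59.1 CPM in the knockout. The lowest knockout value was above the highest wild-type value, a separation upwards that held for 9.68% of tested genes. Means were 38.3 ± 2 and 61.7 ± 7.1 CPM (SD, n = 3 each), which is a log2 fold change of 0.69 ± 0.10 (adjusted p 0.00306, edgeR). Its adjusted p was between 2.64e-09 and 0.017 in the other settings. The related Etv5 was at 91.8 ± 9.2 and 109 ± 6.6 CPM (log2 fold change 0.24 ± 0.09, adjusted p 0.204, edgeR). Erf, a repressor that ERK kinases expel from the nucleus, was at 10.9 ± 0.37 and 7.76 ± 1.7 CPM (log2 fold change -0.49 ± 0.17, adjusted p 0.172, edgeR), with the groups apart. Elf2, a relative of ELF1, was at 113 ± 4.9 and 117 ± 11 CPM (adjusted p 0.877, edgeR). Of the ternary complex factors, which act with SRF, Elk1 was at 12.3 ± 1.5 and 15.4 ± 1.6 CPM (adjusted p 0.256, edgeR) and Elk3 at 25.8 ± 2.8 and 31.8 ± 3 CPM (0.21), while Elk4 was at 58.6 ± 13 and 58.3 ± 2.8 CPM (0.993).

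**Figure D2:**
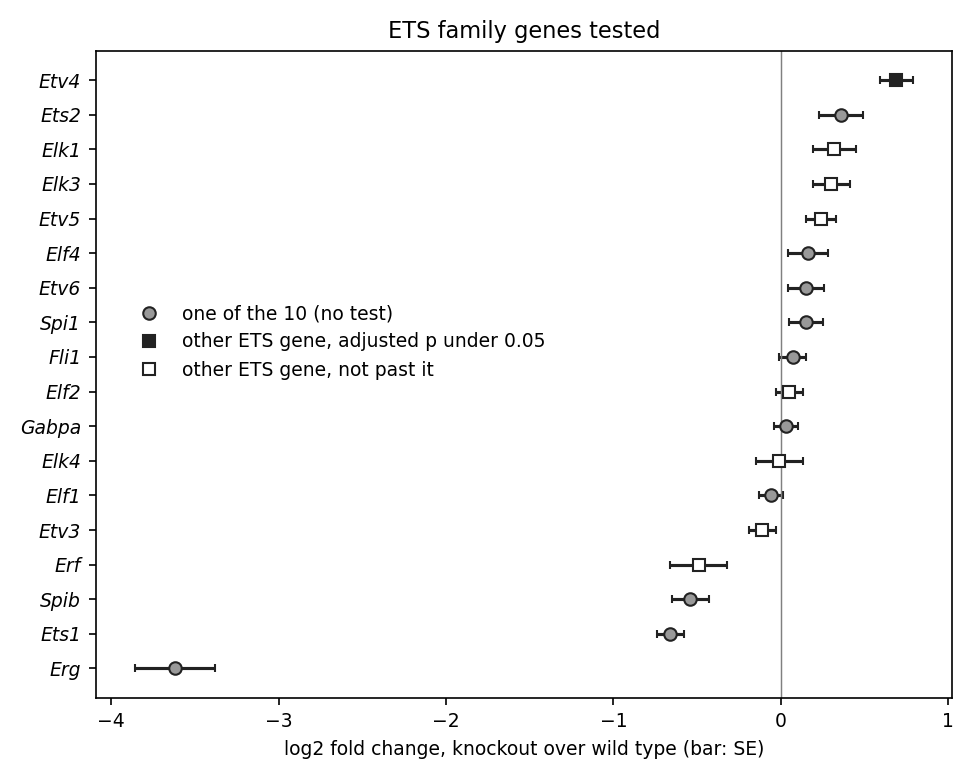
Log2 fold change of the knockout over the wild type, with its SE, for the 18 ETS genes tested, sorted by value. Grey circles are the 10 members, given without a test, and squares the other 8 genes, of which the filled one had an adjusted p under 0.05. Erg lies at -3.62, Ets1 at -0.66, Spib at -0.54 and Etv4 at 0.69, and the other genes lie between -0.49 and 0.36.

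The genes of proteins that act with ETS factors showed no called difference in RNA. Of 20 tested partner and cofactor genes, edgeR called 0, DESeq2 0 and limma-voom 0, where edgeR called 4.59% of all tested genes. None, 0 of 20, had an unadjusted p under 0.05, against 15.4% of all tested genes. Their median log2 fold change was 0.07. Ncor1, a corepressor, was at 295 ± 29 and 305 ± 19 CPM (adjusted p 0.895, edgeR) and Cbfb, the partner chain of RUNX1, at 260 ± 12 and 275 ± 21 CPM (0.746). Irf4 and Irf8, the lymphoid partners of PU.1 and SPIB, are given outside the rule for named genes because of that role. Irf4 was at 116, 182 and 89.8 CPM in the wild type and at 91.2, 111 and 123 CPM in the knockout, with wild-type replicate 2 the highest (adjusted p 0.676, edgeR). Irf8 was at 185 ± 26 and 205 ± 20 CPM (adjusted p 0.615, edgeR).

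B lineage genes that are known targets of PU.1 and SPIB were then examined. Of 14 tested, 2 fell and 0 rose, where 2.79% of all tested genes fell and 1.8% rose. The median log2 fold change was 0.13, with 9 positive values, and 6 genes had an unadjusted p under 0.05 (15.4% of all tested genes). In 3 genes (Btk, P2ry10 and Blk) all knockout libraries lay above the wild type, and in 2 (Grap2 and Il7r) below it. Over all tested genes, 9.68% were apart upwards and 11.2% downwards. The list was drawn up with the fall of Il7r already known. It includes Blnk, whose protein SLP65 both groups lack by the labels. Grap2, an adaptor of antigen receptor signalling whose transcription in B cells depends on PU.1 and SPIB, was at 85.5, 85.4 and 60.6 CPM in the wild type and at 31.5, 38.4 and 28 CPM in the knockout. The lowest wild-type library lay well above the highest knockout library. The log2 fold change of Grap2 was -1.24 ± 0.15 (adjusted p 0.00139, edgeR), and it stayed between -1.38 and -1.14 without each library in turn. Il7r, the receptor chain for interleukin 7, was at 76.1, 96.3 and 73.6 CPM and at 24.7, 40.7 and 18.9 CPM (log2 fold change -1.53 ± 0.23, adjusted p 0.00392, edgeR). Knockout replicate 2 was its highest knockout library, and the log2 fold change was -1.77 with both libraries numbered 2 left out.

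Other genes of this list held their level or were higher without passing the test. Blk, a Src family kinase of B cells, was at 36.1, 163 and 44.5 CPM in the wild type and at 227, 224 and 236 CPM in the knockout (log2 fold change 1.49 ± 0.44, adjusted p 0.101, edgeR). Wild-type replicate 2 lay between the other wild-type libraries and the knockout. Without wild-type replicate 2 the log2 fold change of Blk was 2.51 (adjusted p 9.38e-06, edgeR), and with both libraries numbered 2 left out it was 2.53 (1.4e-05). It was also called by limma-voom (adjusted p 0.034) and not by DESeq2 (0.289). P2ry10, a G protein-coupled receptor, was at 64.7 ± 3.9 and 88.5 ± 15 CPM, just outside the threshold (adjusted p 0.0503, edgeR) and inside it in 5 other settings. Blk and P2ry10 were chosen for mention after their values were seen. Cd79b, a signalling chain of the B cell receptor, was at 310 ± 16 and 301 ± 22 CPM (adjusted p 0.897, edgeR). Cd79a, at whose promoter ETS1 and PAX5 bind, was at 181 ± 7 and 182 ± 11 CPM (adjusted p 0.975, edgeR).

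Targets of ERG and FLI1 from stem cells, megakaryocytes and endothelium were mostly silent. Of 13 listed genes, 8 were too low to test and 4 of these (Pf4, Vwf and Gata2 among them) had 0 reads in all libraries. Of the 5 tested, 1 fell and 0 rose, where 2.79% of all tested genes fell and 1.8% rose. Gata1, a factor of erythroid cells and megakaryocytes, was at 2.19, 1.58 and 1.79 CPM in the wild type and at 0.311, 0.329 and 0.066 CPM in the knockout (log2 fold change -2.88 ± 0.45, adjusted p 0.00458, edgeR). Its fall was known when the list was drawn up. Both groups were low, and the groups did not overlap. Runx1, a factor of blood stem cells, was at 42.5 ± 9.8 and 44.9 ± 7.4 CPM (adjusted p 0.904, edgeR) and Hhex, a homeobox factor of early blood cells, at 40.2 ± 0.36 and 40 ± 2.1 CPM (0.99). Icam2, an adhesion molecule of endothelium and lymphocytes, was at 17.4 ± 1.1 and 19.7 ± 2.9 CPM (adjusted p 0.624, edgeR).

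Markers of other cells that carry much ERG or FLI1 were followed beside these values. Of 12 endothelial and stromal markers, 1 was tested and 0 were called by edgeR, with 0 at an unadjusted p under 0.05. Their summed level was between 103 and 123 CPM in the wild type and between 115 and 131 CPM in the knockout, nearly all of it Pecam1, which B cells also express. The defining endothelial genes Kdr, Tie1 and Emcn were at 0 reads in every library. Of 12 erythroid and megakaryocyte markers, 4 were tested and 1 fell, which was Gata1 (2.79% of all tested genes fell). Their summed level was between 148 and 173 CPM and between 133 and 192 CPM, nearly all of it the globin gene Hbb-bt, while Pf4, Ppbp and Gp1bb were at 0. Myeloid markers summed to at most 5.08 CPM and T and NK cell markers to at most 2.43 CPM in any library. Only 1 gene of each list was tested (Cd68 and Cd3g), with 0 called in either list by edgeR, DESeq2 or limma-voom.

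**Figure D3:**
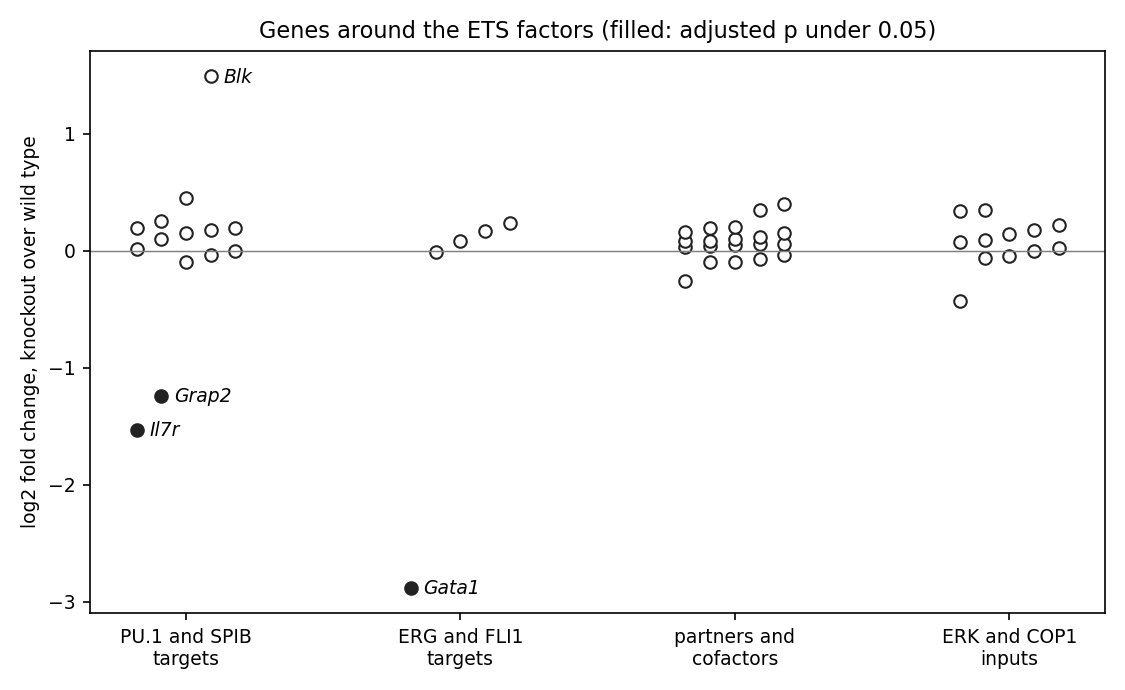
Log2 fold change of the knockout over the wild type for the tested genes of 4 lists around the ETS factors. Each point is a gene, and filled points passed an adjusted p under 0.05. Il7r (-1.53), Grap2 (-1.24) and Gata1 (-2.88) are the filled points, Blk (1.49) is an open one, and the remaining genes lie between -0.43 and 0.45.

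Genes that act upstream of ETS proteins were the last list. ERK kinases phosphorylate several ETS factors, the COP1 ubiquitin ligase degrades the ETV4 group and ETS proteins, and DUSP, SPRY and SPRED proteins dampen ERK. Of 12 tested genes of this kind, edgeR called 0 and limma-voom 0, and DESeq2 called 1, Dusp6. An unadjusted p under 0.05 was found for 3 of the 12, against 15.4% of all tested genes. Dusp6, the phosphatase of cytoplasmic ERK, was at 205, 188 and 185 CPM in the wild type and at 287, 229 and 220 CPM in the knockout (adjusted p 0.101, edgeR). The knockout libraries lay above the wild-type libraries, with replicate 1 the highest. Cop1 was at 130 ± 1.2 and 126 ± 3.5 CPM (adjusted p 0.822, edgeR).

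Position along the chromosome was not used to choose the genes. Within 500 kb of Erg, 2 of 17 annotated genes were tested, Ets2 and Psmg1, and edgeR called 0, DESeq2 0 and limma-voom 0. Ets2 is itself a member chosen on this contrast, so its values are only a description. Psmg1, a proteasome assembly chaperone 393 kb away, was at 47.4 ± 5.1 and 43.1 ± 0.46 CPM (adjusted p 0.583, edgeR). Neither gene had a fall like that of Erg, but 2 genes are too few to describe the region. Around Spib, 31 genes were tested, and 1 fell and 0 rose, with a median log2 fold change of 0.02. Over all tested genes, 2.79% fell and 1.8% rose. The gene that fell was Napsa, an aspartic protease 40.4 kb from Spib, at 216 ± 14 and 166 ± 13 CPM (log2 fold change -0.38 ± 0.08, adjusted p 0.0279, edgeR). Napsa lost its call in 5 settings: without wild-type replicate 2 or 3, without knockout replicate 2 or 3, and without both libraries numbered 2, with an adjusted p of up to 0.24 (edgeR). Nearest to Spib lie Pold1, the catalytic subunit of a DNA polymerase, at 214 ± 14 and 221 ± 17 CPM (adjusted p 0.894, edgeR), and Mybpc2, a muscle myosin-binding protein, at 12.8 ± 2 and 10.3 ± 1.4 CPM (0.4).

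Genes whose pattern over the 6 libraries was most like that of Erg or Spib were ranked by Pearson's r of log2 CPM among 13058 tested genes. With 2 groups of 3 libraries, a high r mostly reflects the difference between the groups. For Erg the highest were Sgk3 (r = 0.998), a kinase, the thioesterase gene Acot2 (0.997), Rab27a (0.997), a GTPase of vesicle transport, Gna11 (0.995), a G protein subunit, and Lck (0.995), a Src family kinase of lymphocytes. All 5 were lower in every knockout library than in any wild-type library, by log2 fold changes between -0.36 and -1.29, and thus less than Erg. Of them, Acot2 did not pass the test over all genes (adjusted p 0.0648, edgeR). For Spib the highest were Adprh (r = 0.994), Cdk17 (0.991), C130083M11Rik (0.99), Pqlc2 (0.988) and Spata24 (0.987). Their log2 fold changes lay between -0.17 and -0.70. Only Cdk17 among them passed the test over all genes (adjusted p 0.0387, edgeR), and the others had an adjusted p between 0.181 and 0.366.

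**Figure D4:**
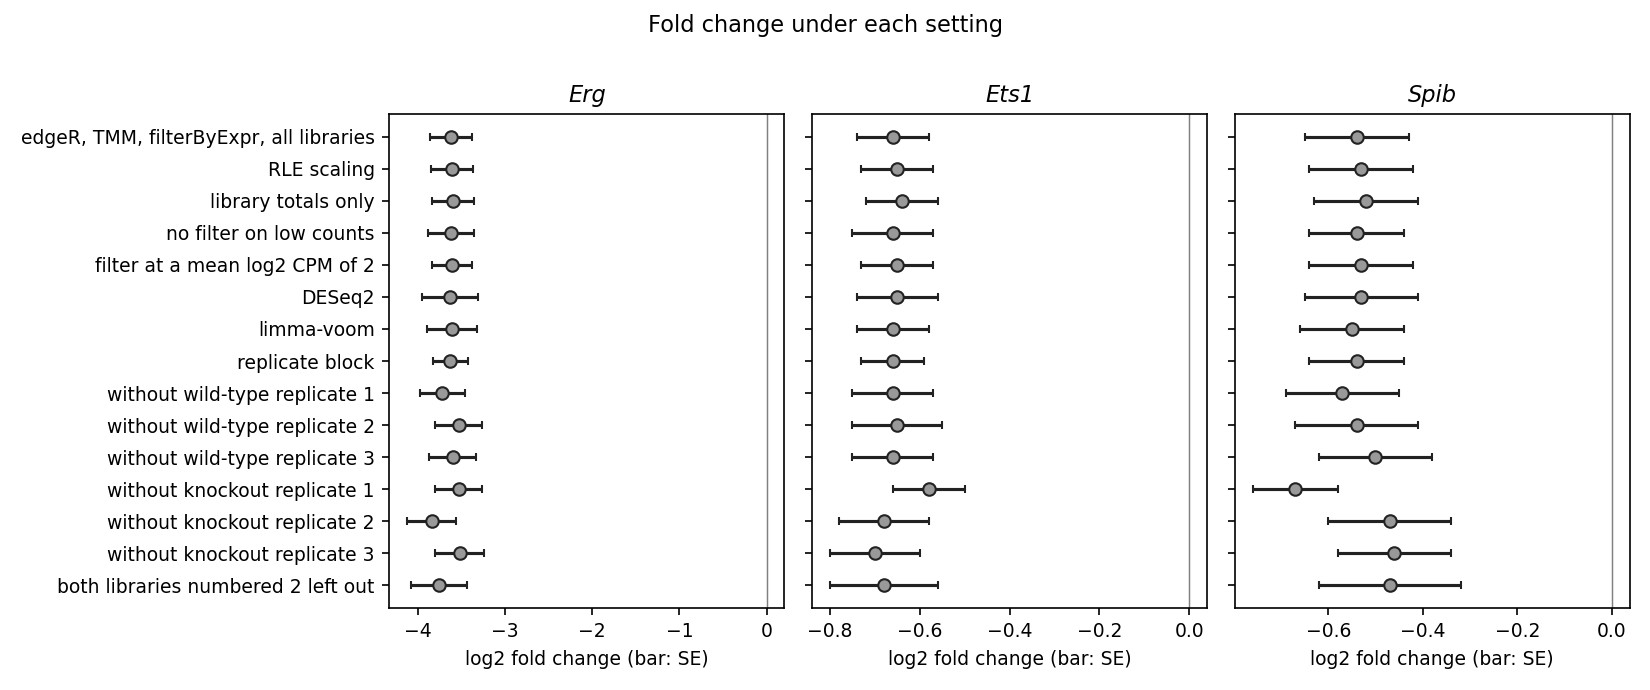
Log2 fold change of the knockout over the wild type, with its SE, for Erg, Ets1 and Spib under the 15 settings tried, with a separate horizontal axis for each gene. Erg lies between -3.84 and -3.52, Ets1 between -0.70 and -0.58 and Spib between -0.67 and -0.46.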

How the data were processed

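RNA was depleted of ribosomal RNA, per the labels' protocols. For each of 6 RNA libraries the authors deposited raw read counts per gene as whole numbers. Tools named in the submitters' processing notes, without their roles, are featureCounts 2.0.0, STAR 2.5.3a and limma, and the build is mm10. For the annotation release, strand setting and multi-mapping, the sources used here give nothing. The other 9 samples (ChIP and input) were not analysed here.

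Symbols came from a table of gene names, by identifier with version (54587 of 55335) or without it (567 more, Ets1 among them). Gene spans came from RefSeq on GRCm38.p6. Genes passing filterByExpr (13077) were fitted with edgeR 4.0.16 in R 4.3.3 (TMM scaling, quasi-likelihood test, no covariate, two-sided, Benjamini-Hochberg over all tested genes). The SE of a log2 fold change comes from the F statistic. Libraries of a group differed by more than sampling noise in every pair (chi-square per degree of freedom 6.53 to 17.5). The scripts were tested on simulated counts. The planned levels per exon length could not be computed, since exon lengths were not at hand.

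Members, lists, alternatives and the rule for named genes were chosen with earlier results of these data known. The rule named the members, called ETS genes and the 3 highest others, up to 3 called genes per direction and the 2 highest of each list, the neighbours within 500 kb of Erg and Spib, and the 5 genes most like each. Some genes that the rule names are not reported here. Alternatives were RLE scaling, library totals only, 2 other filters, DESeq2 1.42.0, limma-voom (limma 3.58.1), a block for the replicate number, and fits with libraries left out.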

Additional observations from a re-analysis of the deposited data

How the results depend on the processing

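Over the 14 alternative settings the log2 fold change ran from -3.84 to -3.52 for Erg, -0.70 to -0.58 for Ets1 and -0.67 to -0.46 for Spib. No called gene changed sign, but values near 0 did, such as that of Gabpa, 0.03 with all libraries and -0.01 without wild-type replicate 2. Genes called over the whole table numbered 235 higher and 365 lower. They were 482 and 721 without the low-count filter and 381 and 565 with the replicate block. Lower genes were 231 when genes needed a mean log2 CPM of 2 and 224 with both libraries numbered 2 left out. Without each library in turn, higher genes ran from 138 to 227 and lower genes from 242 to 316, the lowest counts being without wild-type replicate 1. Calls among the PU.1 and SPIB targets rose from 2 to 4 without the filter and with the replicate block, by Blk and P2ry10. Those among the upstream genes went from 0 to 2 without the filter (Dusp5, Dusp6) and to 1 with DESeq2 or the replicate block. The 1 called ERG and FLI1 target, Gata1, was removed by that stricter filter, which left 0. Around Spib, 3 neighbours were called without the filter, 2 in DESeq2 and 0 with both libraries numbered 2 left out, and between 0 and 1 without each library. The cause was not tested. Whether replicate numbers pair the samples was not clear from the counts. Deviations of same-numbered libraries from their group means correlated at 0.03, 0.21 and 0.40 across genes for numbers 1, 2 and 3. Wild-type replicates 2 and 3 correlated best with the knockout library of their own number, but wild-type replicate 1 with knockout replicate 2 (0.27). Fewer than about 10 reads per library, as for Gata1 in the knockout, limit the precision of a level. Per-length levels were not run.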

Other observations

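Elf1 lies beside a gene with a larger difference than any of its other tested neighbours. Of 7 tested genes within 500 kb of Elf1, 1 was lower by edgeR (2.79% of all tested genes were). It was the cell cycle regulator gene Rgcc, 180 kb away. Rgcc was at 7.49, 6.6 and 8.43 CPM in the wild type, against 1.18, 1.6 and 0.858 CPM in the knockout (log2 fold change -2.60 ± 0.25, adjusted p 0.000496, edgeR). Between Rgcc and Elf1, Naa16 was at 54.4 ± 2.9 and 57.3 ± 4.7 CPM (adjusted p 0.792, edgeR), and Wbp4, whose span overlaps Elf1, was at 51.6 ± 2.6 and 53.9 ± 2.5 CPM (0.814). These genes were chosen for mention after their values were seen.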
